A study of Mus musculus with 4 samples.

Results

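Microglia, the resident macrophages of the retina, were a small population in these single-cell transcriptomes: 70 of 33329 kept barcodes, or 0.210%. A barcode stands for 1 droplet, usually 1 cell. Members were selected on measured counts. A barcode was kept when it held at least 300 genes and at most 20% mitochondrial unique molecular identifiers (UMIs, each counting 1 captured RNA molecule). It was called microglia when at least 3 of 7 genes (C1qa, C1qb, C1qc, Csf1r, Cx3cr1, Tyrobp and P2ry12) were detected and the 7 together had at least 6 UMIs. The WT female gave 20 microglia, the WT male 25, the NLGF female 15 and the NLGF male 10. Where values of all 4 libraries are listed, WT comes before NLGF and the female before the male (library order).

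The study profiled whole dissociated retina from wildtype (WT) and NLGF mice at 30 days of age with droplet-based 10x Genomics libraries. NLGF mice carry a knock-in allele of App, the gene of the amyloid precursor protein, with a humanised amyloid beta sequence and disease mutations, under the gene's own promoter. Each genotype had 1 female and 1 male, and each of the 4 libraries was 1 retina of 1 mouse. The libraries held 8060 to 9068 barcodes with 19128388 to 23473093 UMIs in all, and the microglia are followed here by genotype and within each library. In the microglia, Xist, which is transcribed from the inactive X chromosome, had 55 and 41 UMIs in the WT and NLGF females and 0 in both males. The Y-linked gene Eif2s3y had 0 in both females, 12 in the male of WT and 4 in that of NLGF. Between 17 and 34 barcode sequences were shared by any pair of libraries, and no sequence was called microglia in more than 1 library.

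Microglia settle in the retina during development and tile its plexiform layers, where they survey synapses and take up debris and dying cells. Survival depends on the receptor CSF1R and its ligands CSF1 and IL34, and contact with neurons runs in part through the receptor CX3CR1 and its neuronal ligand CX3CL1. Around amyloid plaques in the brain, microglia are known to lower homeostatic genes and to raise a disease-associated set through TREM2 and its adaptor TYROBP.

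The selecting genes separated a small set of barcodes from the rest, which describes the rule and is not a result. The 70 microglia held 4641 of the 7 genes' UMIs, and the other 33259 kept barcodes together held 275, so that 94.4% of these UMIs lay in the microglia. In the other barcodes 232 (0.698%) had any such UMI, and 218 of these had 1. Just inside the threshold, 1 WT female barcode had 6 UMIs from 3 of the genes, and 1 WT male and 1 NLGF female barcode had 7. Just outside, 2 barcodes had 5 UMIs, and another pair had 11 and 12 UMIs but only 2 of the genes, mostly Tyrobp (9 and 11 UMIs). Another 3 barcodes met the marker rule but not the quality filter. Most members were far from the threshold: 45 had 6 or 7 of the genes, and the median was 27 UMIs of the 7 genes.

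**Figure D1:**
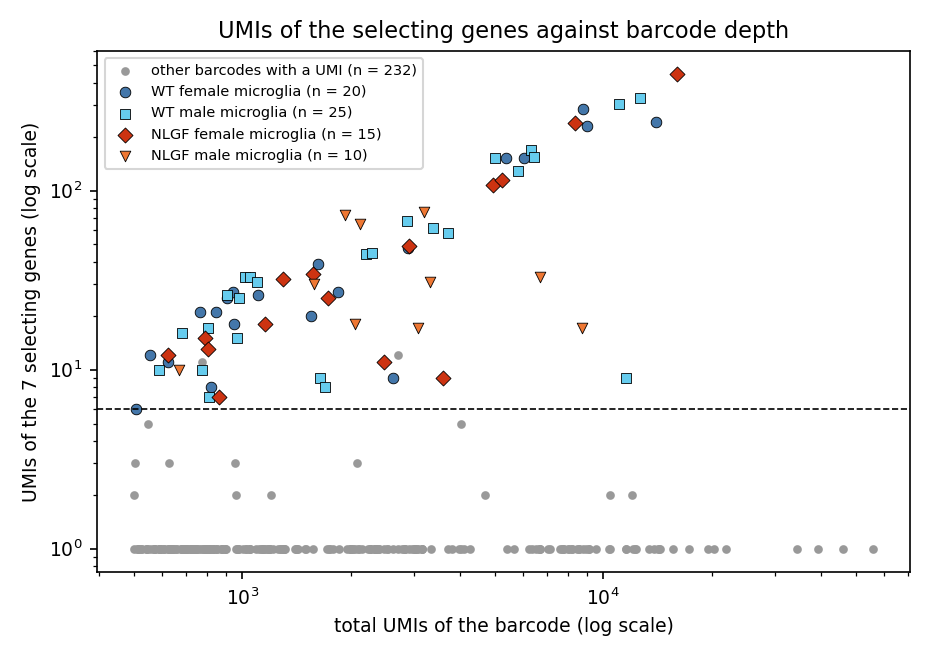
UMIs of the 7 selecting genes against total UMIs for each microglia barcode and for each other kept barcode with at least 1 such UMI, both on log scales. The dashed line is the threshold of 6 UMIs, the 232 other barcodes lie mostly at 1 UMI, and most of the 70 microglia follow a band in which these genes grow with depth.

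Depth varied widely among the microglia. Total UMIs ran from 507 to 16046 with a median of 1782.5, against a median of 1013 in the other kept barcodes, and genes detected ran from 307 to 4218. The 17 barcodes with at least 5000 UMIs held 62.9% of all 233693 microglial UMIs, whereas the 22 barcodes under 1000 UMIs held 7.35%. Summed levels therefore rest mostly on a few deep barcodes. Library sums were 61702, 86286, 52371 and 33334 UMIs in library order. Levels below are UMIs per 1000000 UMIs summed over a library's microglia (CPM).

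The complement genes C1qa, C1qb and C1qc encode the chains of C1q, which tags synapses and debris for uptake. They lie side by side on chromosome 4 of mm10, at 136895917-136898803, 136880129-136886187 and 136889804-136893065, all on the minus strand. C1qa stood at 5446, 4902, 4793 and 2250 CPM in library order. C1qb stood at 5494, 4334, 5079 and 3000 CPM, and C1qc at 4376, 3303, 3399 and 1500. The NLGF male was the lowest library for all 3 genes. Without the mixed and border barcodes described below, this library stood at 3951, 4939 and 2893 CPM for C1qa, C1qb and C1qc, over 1.5 times its value with all barcodes, and was still the lowest. A low share of the selecting genes is one criterion for mixed barcodes, so part of this rise is set by the criterion. Pooled over the 70 barcodes, C1qa was at 4643 CPM (95% Poisson interval 4371 to 4928), against 0.377 CPM in the other barcodes. A C1qa UMI was found in 69 of 70 microglia and in 0.0932% of the other barcodes.

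The receptors of the rule and their adaptor were likewise lowest in the NLGF male with all barcodes, and for Csf1r and Cx3cr1 this order depended on the mixed and border barcodes. Csf1r, the receptor for CSF1 and IL34, was at 1313 and 1738 CPM in the WT female and male and at 1680 and 1200 CPM in the NLGF female and male. Cx3cr1, the fractalkine receptor, was at 1961 and 2631 CPM in WT and 2330 and 1290 CPM in NLGF. The purine receptor gene P2ry12, by which processes sense ATP, was at 827 and 1205 CPM in WT and 878 and 420 CPM in NLGF. Tyrobp, the adaptor through which TREM2 signals, was at 2901 and 2329 CPM in WT and 3418 and 1440 CPM in NLGF. In the 57 barcodes that are neither mixed nor border, Csf1r stood at 1486, 2091, 1901 and 2469 CPM in library order, with the NLGF male highest. Cx3cr1 then stood at 2395, 3262, 2636 and 2963 CPM, with the WT female lowest, and the NLGF male was still lowest for P2ry12 (847 CPM) and Tyrobp (2610 CPM). As for the C1q genes, part of these shifts is set by the criterion that marks barcodes with few selecting UMIs as mixed. With all barcodes, the NLGF female lay for each of these 4 genes within or above the range of the WT libraries. Together the 7 genes made up 2.23%, 2.04%, 2.16% and 1.11% of microglial UMIs in library order.

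Markers of microglial identity outside the rule, 10 in number, were followed as a check of the label, among them Tmem119, Trem2, Sall1, Siglech, Gpr34, Fcrls, Olfml3, Selplg and P2ry13. The median microglia barcode had 4 of the 10, 50 of 70 had at least 3, 19 had at least 8, and 2 had none. The 17 deepest barcodes had a median of 9 of the 10, and the 22 shallowest a median of 2. Tmem119, a membrane protein that separates microglia from most other macrophages, was at 287 CPM in pooled microglia against 0.0851 in the other barcodes, and Sall1, a transcription factor of microglial identity, at 167 against 0.328. These markers are correlated with the selecting genes through cell type and depth, so their levels describe the barcodes and are not a test.

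Ranked by the ratio of pooled microglial CPM to that of the other barcodes, among genes with at least 40 microglial UMIs and UMIs in all 4 libraries, the following genes led outside the rule. Fcrls, an Fc receptor-like gene, had 74 microglial UMIs and 1 UMI in all other barcodes. Ctss, the lysosomal protease cathepsin S, had 1693 and 39. The list went on with Bcl2a1b (184 CPM in microglia), Ighm (248 CPM), Ly86 (1605 CPM), Siglech (706 CPM), Itgam (402 CPM), Selplg (886 CPM), Fcgr1 (180 CPM), Laptm5 (1318 CPM), Tnfaip8l2 (171 CPM), Ltc4s (334 CPM), Bin2 (334 CPM), Dock2 (175 CPM) and Cd180 (175 CPM). Each of these was at or below 0.280 CPM in the other barcodes. Itgam encodes the CD11b chain of complement receptor 3, Laptm5 a lysosomal membrane protein of blood cells, and Cd180 and Ly86 a Toll-like receptor homologue and its partner. Bcl2a1b has near-identical copies that counting can split, so its value is uncertain.

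**Figure D2:**
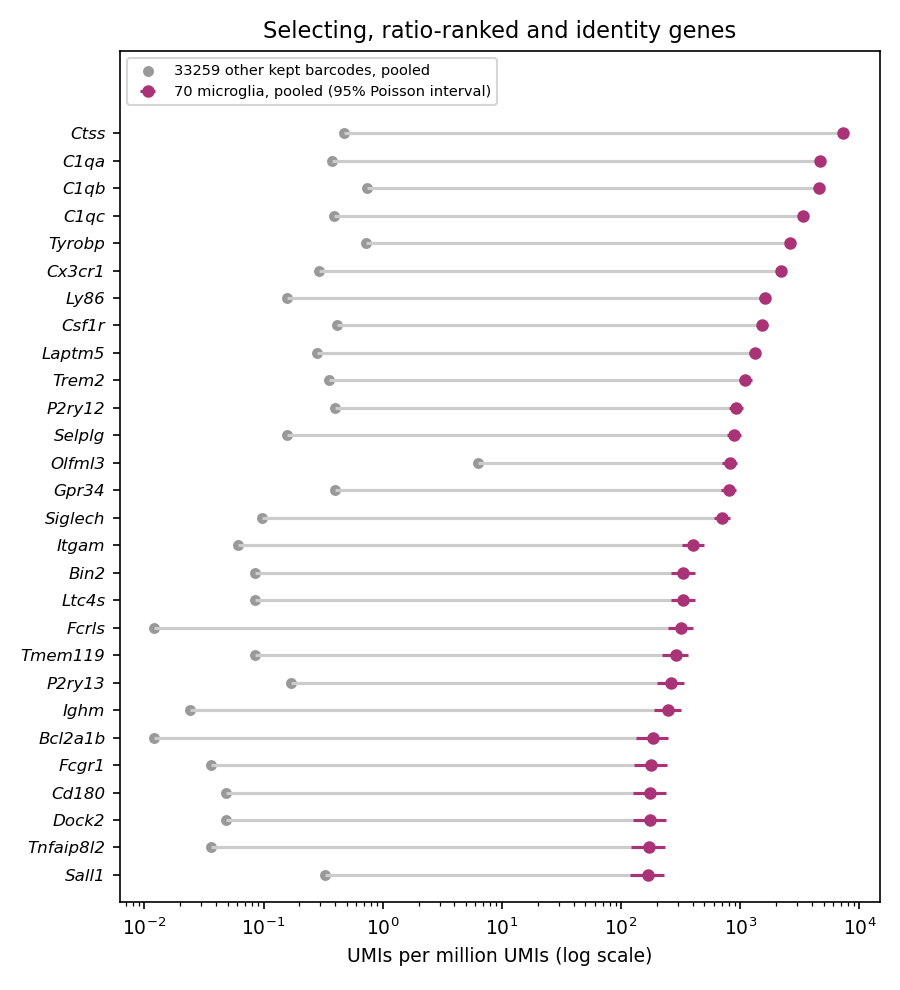
Pooled CPM on a log scale for the selecting genes, the 15 genes ranked by ratio and other identity markers, in the 70 microglia (magenta, with 95% Poisson intervals for counting error only) and in the 33259 other kept barcodes (grey). Of the genes drawn, Olfml3 (6.32 CPM) was the only one above 1 CPM in the other barcodes.

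Other blood cells were not detected among the members. All 5 monocyte and granulocyte markers (Ly6c2, Ccr2, Plac8, S100a8, S100a9) and all 5 lymphocyte markers (Cd3e, Cd3d, Nkg7, Cd79a, Ms4a1) had 0 of 233693 UMIs. Border macrophages, the perivascular and meningeal relatives of microglia, were represented by 2 barcodes. One WT female barcode of 13993 UMIs had 111 UMIs from 6 of 7 border markers, and one WT male barcode of 3379 UMIs had 29 UMIs from 6 of 7. The pair held 140 of the 143 border marker UMIs: Pf4, a chemokine, had 50 and 9 UMIs by library, and Mrc1, the mannose receptor, 23 and 8. Both NLGF libraries had 0 UMIs of all 7 border markers. These 2 barcodes passed the rule for microglia with 241 and 62 UMIs of the selecting genes, so the rule did not separate the 2 kinds of macrophage.

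RNA of other retinal cells was present in the microglia barcodes and was uneven between libraries. All 70 microglia had a UMI of at least 1 rod marker. The 7 rod markers made up 0.546%, 0.374%, 0.852% and 1.43% of microglial UMIs in library order, against 2.77% to 2.98% in the other barcodes. Criteria set after seeing the data marked 11 barcodes as mixed: rod markers at 2% or more of UMIs (8 barcodes), Müller glia markers at 1% or more (1 barcode), or the selecting genes under 0.5% (7 barcodes). Mixed barcodes numbered 1 of 20, 4 of 25, 2 of 15 and 4 of 10 in library order. The NLGF male had the lowest share of selecting genes and the highest share of mixed barcodes. A low share of selecting genes is itself a criterion for mixed, so these values are not independent. Its deepest barcode, of 8748 UMIs, held 193 UMIs of Müller markers and 17 of the selecting genes. Another of its barcodes, of 6680 UMIs, held most of the UMIs of the cone genes Opn1sw (73 of 77) and Pde6h (81 of 82). In the WT male, 1 barcode of 11541 UMIs had 9 UMIs of the selecting genes. Without the 11 mixed and 2 border barcodes, 57 remained (18, 20, 13 and 6).

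**Figure D3:**
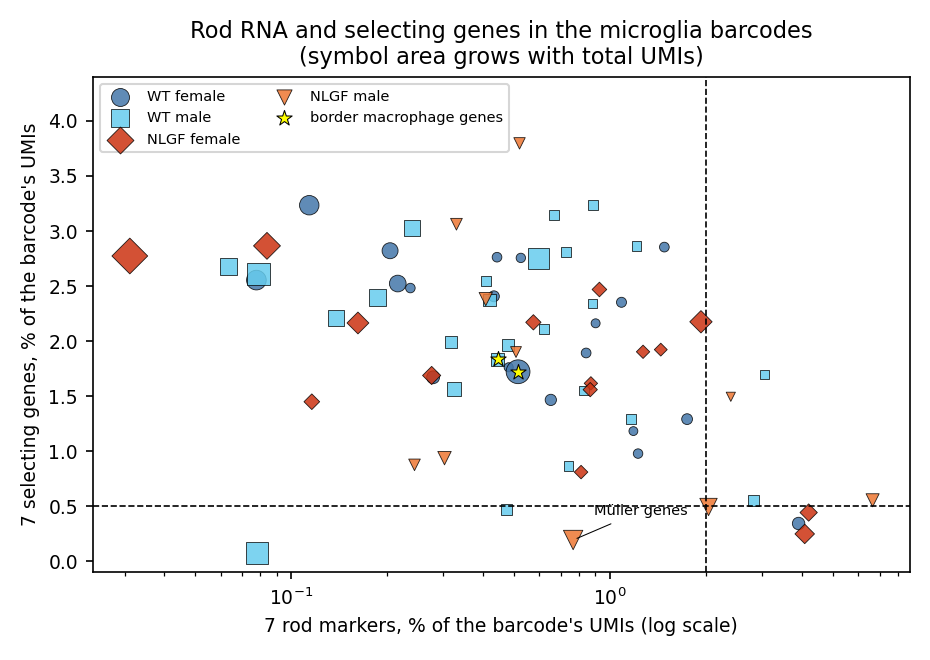
Share of each microglia barcode's UMIs from the 7 selecting genes against the share from 7 rod markers (log scale), with symbol area growing with total UMIs. Dashed lines are the limits of 2% and 0.5%, stars mark the 2 barcodes with border macrophage genes, and the labelled NLGF male barcode carries Müller genes.

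The share of microglia was compared between genotypes over libraries. The share was 0.232% of kept barcodes in the WT female (95% Wilson interval 0.150 to 0.359), 0.289% in the WT male (0.196 to 0.427), 0.197% in the NLGF female (0.119 to 0.325) and 0.118% in the NLGF male (0.0641 to 0.217). Both NLGF libraries lay below both WT libraries, and all 4 intervals overlapped. The means were 0.261% ± 0.0404 for WT and 0.158% ± 0.0559 for NLGF (SD, n = 2), a difference of -0.103 percentage points. A two-sided exact permutation test over libraries gave p = 0.3333, the smallest value that 2 against 2 libraries allow, so the test could not reach 0.05.

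**Figure D4:**
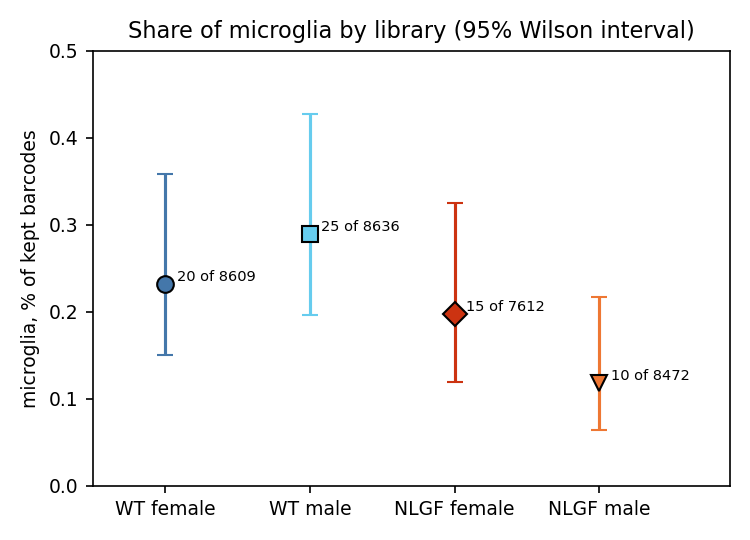
Microglia as a percentage of kept barcodes in each library, with 95% Wilson intervals that cover counting error only and the counts behind each share. The shares run from 0.118% in the NLGF male to 0.289% in the WT male.

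Genotype was then tested gene by gene on UMIs summed over the microglia of each library, since each library had at least 10 microglia. No gene of 834 tested passed an adjusted p of 0.05 in edgeR's quasi-likelihood test (0%), and the lowest adjusted p was 0.562. At an unadjusted p under 0.05 there were 68 genes, 38 with estimates below 0 and 30 above. DESeq2 also called 0 genes, with 28 at an unadjusted p under 0.05. Leaving out 1 library called 7 genes (without the WT female), 10 (the WT male), 82 (the NLGF female) or 14 (the NLGF male), in fits where a genotype had a single library. That library was of 1 sex, so genotype and sex were partly confounded in those fits. With all 4 libraries, the median log2 fold change of all tested genes was 0.019, with 432 estimates above 0 and 402 below. Levels of NLGF and WT are therefore given below as values, with their estimates, and none is a called difference. With 2 libraries per genotype, a lack of overlap is common by chance, and its share over all tested genes is not given here.

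Among the 5 smallest p-values with estimates below 0 were genes of antigen presentation, immediate early transcription and phagocyte signalling. H2-D1, a class I antigen-presenting molecule (chromosome 17 of mm10, 35262730-35267499), had 98 and 68 UMIs in the WT female and male and 12 and 7 in the NLGF female and male, or 1588, 788, 229 and 210 CPM. The WT and NLGF libraries did not overlap, and the UMIs came from 34 barcodes, 1 of which held 46 of them. The log2 fold change was -2.33 (SE 0.48, edgeR adjusted p = 0.562), and over 12 alternatives the adjusted p ran from 0.0029 to 0.777. It passed the threshold without the WT male, without either NLGF library and with no filter on low counts. Without mixed and border barcodes, the H2-D1 counts were 78, 66, 12 and 7. Fosb, an immediate early transcription factor, had 28, 56, 3 and 4 UMIs in library order, and its log2 fold change was -2.63 (SE 0.56). Fosb was called with no filter on low counts and without the NLGF male (adjusted p = 0.0016 in edgeR's test, the lowest of a range up to 0.760). Another 3 genes completed this set. Plek, which encodes the phagocyte protein pleckstrin, had 36, 39, 10 and 5 UMIs. Zfp36, which encodes an RNA-binding protein that shortens the life of cytokine mRNAs, had 23, 49, 9 and 3. Inpp5d, which encodes the phosphatase SHIP1 that restrains TREM2 signalling, had 20, 27, 4 and 3. The log2 fold changes of these 3 were -1.50, -1.73 and -1.87, and in each of the 5 genes both WT libraries lay above both NLGF libraries in CPM. The 5 genes were chosen for small p-values, so this separation largely follows from the choice and adds no evidence.

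The 5 smallest p-values with estimates above 0 were all photoreceptor genes: Tulp1, Rp1, Guca1a, Pde6g and Rbp3. Tulp1, a photoreceptor transport protein, had 211 and 220 CPM in the WT female and male and 592 and 1260 CPM in the NLGF female and male. With mixed and border barcodes left out, Tulp1 had 133, 208, 130 and 282 CPM in library order, and the genotypes overlapped. The log2 fold changes were 2.21, 1.43, 2.61, 1.79 and 2.39 in the order named. All 7 rod markers were tested, all 7 had estimates above 0 (median 1.43), and 6 had an unadjusted p under 0.05, none passing the adjusted threshold. For all 834 genes tested, 432 estimates were above 0 and 68 genes had an unadjusted p under 0.05. Rod markers summed to 5462, 3743, 8516 and 14280 CPM in library order, and to 3615, 3366, 4213 and 3739 CPM without mixed and border barcodes. The genotypes did not overlap in either case, and the gap was smaller in the second. In the other barcodes these genes summed to 28388 CPM, so the microglial values lie below those of the retina at large. Without the NLGF female library, Tulp1, Guca1a, Pde6g, Rbp3 and the rod markers Pdc, Gngt1 and Sag were called.

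Antigen presentation and interferon-response genes were examined as a list of 15, of which 5 passed the filter on low counts. All 5 estimates were below 0 with a median log2 fold change of -2.33, 3 had an unadjusted p under 0.05, and none passed the adjusted threshold. Over all 834 genes tested, these counts were 402 below 0 and 68 with an unadjusted p under 0.05. H2-K1, the other class I gene (chromosome 17, 33996017-34000347), had 61, 26, 2 and 5 UMIs in library order, and passed the threshold without the WT male, without the NLGF male and with no filter on low counts (adjusted p from 0.00013 to 0.998 over alternatives in edgeR and DESeq2). Ifitm3, an interferon-induced membrane protein, had 51, 20, 5 and 3, and Bst2, the tethering factor tetherin, had 54, 20, 23 and 1. In Ifi27l2a there were 44, 37, 26 and 1 UMIs. Ifitm3 was called without the WT male or without either NLGF library, and Bst2 and Ifi27l2a without the NLGF female. The estimate for Ifi27l2a turned from -0.97 to 0.91 without the border macrophage barcodes, and that for Bst2 from -1.05 to 0.05 without the WT female. Border macrophage barcodes carried part of these counts: without mixed and border barcodes Ifitm3 had 28, 3, 5 and 0 UMIs and Ifi27l2a 12, 6, 26 and 1. H2-K1, in contrast, had 42, 25, 2 and 4. Class II genes were near 0 throughout: H2-Aa had 0 UMIs, H2-Ab1 had 4 and Cd74 had 5. The list summed to 5624, 2248, 1489 and 810 CPM by library, and to 4768, 1838, 1685 and 1270 CPM without mixed and border barcodes.

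Immediate early genes, which cells switch on within minutes of a stimulus and which also respond to tissue dissociation, formed a list of 18. Of these 14 were tested, 13 had estimates below 0, 8 had an unadjusted p under 0.05, none passed the adjusted threshold, and the median log2 fold change was -1.26. Among all 834 tested genes, 402 had estimates below 0 and 68 an unadjusted p under 0.05. The list summed to 6580, 12111, 3953 and 3960 CPM in library order. The sums without mixed and border barcodes were 7473, 15330, 4364 and 7126, and the lower WT and the higher NLGF library then lay close together. Fos had 16, 100, 6 and 6 UMIs and Jun 54, 205, 51 and 21, so the WT male carried most of both. Fos was called without the WT female or without the NLGF male. Egr1 had 38, 53, 10 and 9. The exception above 0 was Ier2, with 2, 21, 1 and 16 UMIs. Ier2 was called without the NLGF female, at a log2 fold change of 1.83. These genes were uneven between cells: their share of a barcode's UMIs had a median of 0.0633% and a highest value of 4.32%.

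**Figure D5:**
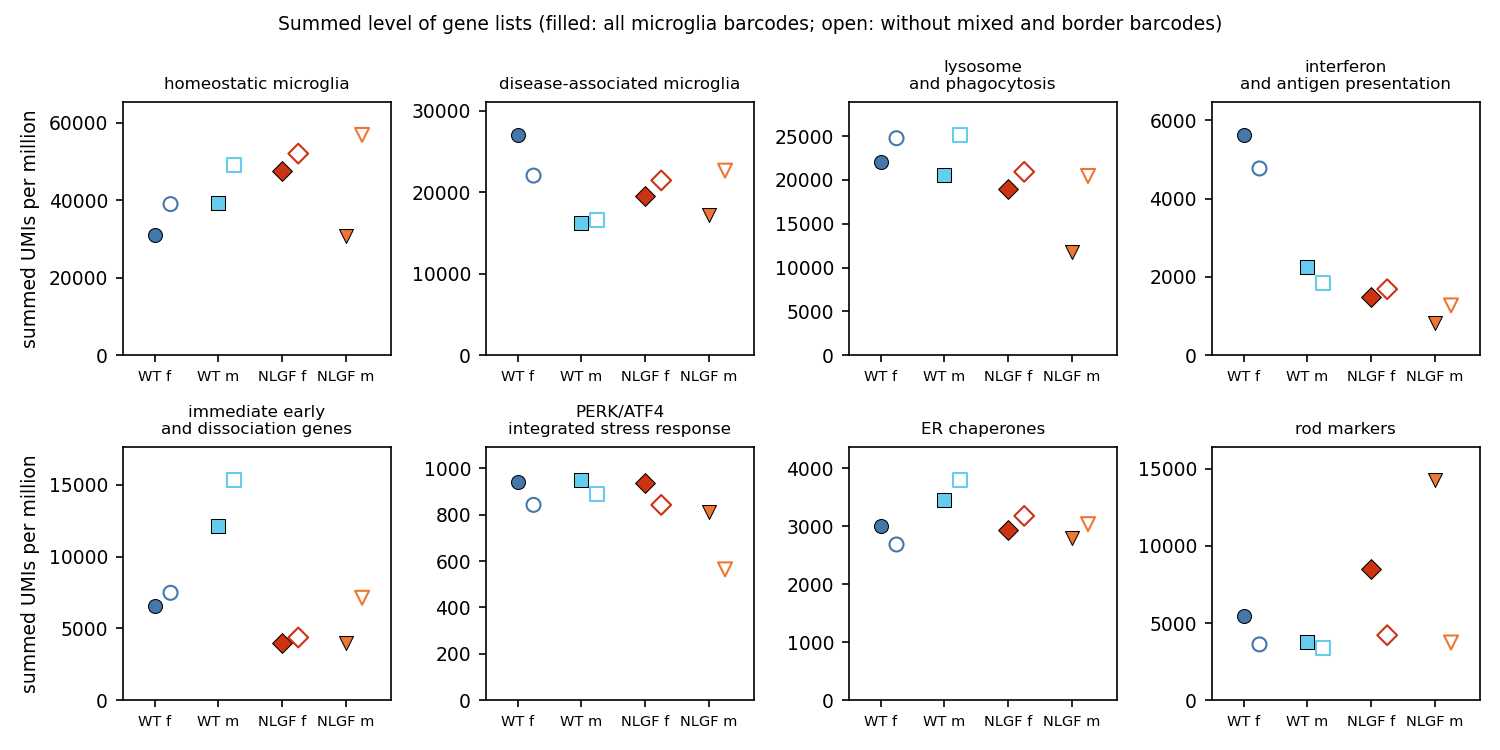
Summed CPM of 8 gene lists in each library's microglia; filled symbols use all barcodes and open symbols leave out the 11 mixed and 2 border barcodes. The libraries of the 2 genotypes do not overlap for interferon and antigen presentation genes with either set, rod marker sums of the NLGF libraries drop to 4213 and 3739 CPM without those barcodes, and the homeostatic list overlaps between genotypes with all barcodes but not without those barcodes. Open symbols of the NLGF male rest on 6 barcodes.

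The homeostatic list of 15 genes had 14 tested, 5 with estimates above 0 and 9 below, and a median log2 fold change of -0.28. Its sum was 31052 and 39276 CPM in the WT female and male and 47565 and 30659 CPM in the NLGF female and male, so the genotypes overlapped. Leaving out mixed and border barcodes, it was 39006 and 49119 CPM in WT and 52043 and 56865 CPM in NLGF, so the NLGF male moved from the lowest to the highest library and the genotypes no longer overlapped. That set was chosen after seeing the data and leaves the NLGF male 6 microglia and 14174 UMIs, under the 10 microglia required for a test. Cst3, a secreted protease inhibitor that other retinal cells also express (1517 CPM), gave 5932 of the list's 8818 UMIs. Siglech, a sialic acid-binding lectin of microglia, had 859 and 869 CPM in WT and 496 and 330 CPM in NLGF. Its log2 fold change was -0.98, at an adjusted p of 0.587 in edgeR's test. Sall1 had 211 and 209 CPM in WT and 95.5 and 90.0 in NLGF, from 31 and 8 UMIs. Sparc, a matrix protein, had 1313, 2411, 2272 and 1770 CPM in library order. Siglech and Sall1 did not overlap between genotypes, whereas Sparc did, which with 2 libraries each is no evidence of a genotype difference.

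Disease-associated genes were measured for 19 listed members (another listed gene was not analysed here), 11 were tested, 6 had estimates above 0 and 5 below, and the median log2 fold change was 0.02. Trem2, the lipid-sensing receptor, was at 924 and 1113 CPM in the WT female and male and at 1375 and 960 CPM in the NLGF female and male, which overlapped. In the 57 barcodes neither mixed nor border it was at 1064 and 1364 CPM in WT and at 1534 and 1834 CPM in NLGF, which did not. The NLGF male has only 6 barcodes in that set, which was chosen after seeing the data. Genes that mark the full disease-associated state were at or near 0 UMIs. Spp1, Gpnmb and Csf1 had 0 UMIs in every library. Cst7 had 1 UMI, Itgax 4, Lpl 7 and Axl 8, all of them in WT microglia and none in the 85705 UMIs of the NLGF microglia. A count of 0 in the NLGF microglia allows a level of up to 35.0 CPM (3 counts over the group, counting error only), so these genes were not detectable at this depth rather than shown to be absent. The list's 5 most abundant members were Fth1, Apoe, B2m, Ctsd and Ctsl, with log2 fold changes of 0.33, -0.83, -0.88, 0.15 and 0.57 in that order. B2m was called without the NLGF female (log2 fold change -1.51). Ctsd and Ctsl are lysosomal genes that microglia also use at rest. Ctsd, the protease cathepsin D, was at 2010, 1993, 2444 and 1770 CPM, and Ctsl at 875, 1008, 1508 and 1140 CPM by library. In those 57 barcodes they were at 2572, 2476, 2679 and 3386 CPM and at 1109, 1186, 1663 and 1905 CPM, with both NLGF libraries above both WT libraries. The NLGF male values again rest on 6 barcodes.

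Apoe, a lipid carrier of the disease-associated list that Müller glia also express, illustrates how few barcodes set a value. The gene (chromosome 7 of mm10, 19696109-19699188) had 585, 272, 88 and 155 UMIs in library order, or 9481, 3152, 1680 and 4650 CPM. The 2 border macrophage barcodes held 612 of the 1100 UMIs, 457 of them in 1 WT female barcode, and the Müller-rich NLGF male barcode held 119. The other 67 barcodes had 369 UMIs. Without mixed and border barcodes Apoe had 127, 90, 87 and 33 UMIs, or 2816, 1334, 1879 and 2328 CPM, and the genotypes overlapped. The estimated log2 fold change was -0.83 (SE 0.69), with an adjusted p of 0.856 in edgeR's test. It turned to 0.81 without the 2 border barcodes (adjusted p = 0.733), to 0.07 without the WT female and to -1.96 without the NLGF male (adjusted p = 0.0031 in edgeR's test, the lowest over the alternatives).

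Signalling below TREM2 was sparsely counted. Of 12 listed genes 4 were tested, 2 with estimates above 0 and 2 below (median -0.05), and Inpp5d was the one with an unadjusted p under 0.05. Cd33, the sialic acid-binding receptor tied to Alzheimer risk, had 11, 16, 9 and 3 UMIs in library order. The adaptor Grb2 had 17, 5, 15 and 6. Syk and Plcg2, the kinase and lipase that carry the signal inward, had 17 and 16 UMIs in all and were not tested.

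The ligands of the microglial receptors had few or no counts in microglia. Il34 and Csf1, the CSF1R ligands, had 0 UMIs in microglia and 1.42 and 2.61 CPM in the other barcodes, both below the 12.8 CPM that a count of 0 allows in the pooled microglia. Cx3cl1, the ligand of CX3CR1, had 2 UMIs in microglia and stood at 23.8 CPM in the other barcodes. Myeloid transcription factors were present: pooled CPM was 270 for Spi1 (PU.1), 308 for Irf8 and 372 for Maf. Spi1 was called without the NLGF female (log2 fold change -3.06) and stood at 0.25 without the NLGF male. The list of 12 for the CSF1R axis and transcription factors had 5 genes tested. All 5 had estimates below 0 (median -0.65), against 402 of all 834 tested genes, and 1 had an unadjusted p under 0.05. That gene was Maf, with 41, 32, 9 and 5 UMIs in library order, 24 of them in 1 barcode; without mixed and border barcodes it had 16, 25, 9 and 4.

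Chemokine and purine-sensing genes were low. In 17 listed genes 2 were tested, with 1 estimate on each side of 0. One of them was Entpd1, which encodes an enzyme that breaks down extracellular ATP and had 10, 21, 15 and 5 UMIs in library order. Il1b and Cxcr4 had 0 UMIs, Tnf had 4, Ccl2 had 2 and Cxcl10 had 1, whereas the chemokine gene Ccl12 had 25 and the UDP receptor gene P2ry6 had 34. Inflammatory cytokine transcripts were thus at or near the floor in both genotypes. Complement genes outside C1q were also sparse: C3 had 1 UMI, and C1ra and C1s1, the proteases that act with C1q, had 0. Of 14 listed genes 2 were tested, both with estimates below 0 (median -0.58).

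Lysosomal and phagocytic genes had 16 of 20 tested, 15 with estimates below 0 and 1 above, a median log2 fold change of -0.38, and 1 unadjusted p under 0.05. Of all 834 genes tested, 402 had estimates below 0 and 68 an unadjusted p under 0.05. Ctss was at 7860 and 8020 CPM in the WT female and male and 6779 and 4830 CPM in the NLGF female and male. The list summed to 22009, 20606, 18923 and 11790 CPM in library order. Without mixed and border barcodes it summed to 24770, 25145, 20934 and 20460, so the NLGF male moved to the level of the NLGF female while both stayed below WT. That set was chosen after seeing the data, and its NLGF male value rests on 6 barcodes. Cyba, a subunit of the phagocyte oxidase, had the smallest p of the list, with 65, 74, 31 and 12 UMIs. Fcer1g, the Fc receptor gamma chain, had 159, 142, 123 and 32.

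The study's title concerns stress of the endoplasmic reticulum (ER) in Müller glia, and the same genes were read in microglia. The PERK/ATF4 branch, in which the kinase PERK slows translation and the transcription factor ATF4 raises amino acid and redox genes, had 22 listed genes, and none passed the filter on low counts. Their sum was 940, 950, 936 and 810 CPM in library order, against 1004 CPM in the other barcodes. Atf4 had 9, 15, 9 and 4 UMIs. Ddit3, the stress transcription factor CHOP, had 2 UMIs in all, 1 in each male library. Chac1, Trib3, Asns, Slc7a11 and Slc7a5, targets of ATF4, had 0 UMIs in every library.

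ER chaperones were better counted. Of 14 listed genes 6 were tested, 3 with estimates above 0 and 3 below, with a median log2 fold change of -0.0059 and a lowest adjusted p of 0.900 in edgeR's test. Hspa5, the chaperone BiP, was at 373 and 545 CPM in the WT female and male and at 458 and 420 CPM in the NLGF female and male, and the log2 fold change was 0.0046 (SE 0.42). The list summed to 2998, 3454, 2941 and 2790 CPM by library. None of the 6 tested ER chaperones was called, and the PERK/ATF4 genes were too sparse to be tested.

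App itself had 9, 16, 2 and 3 UMIs in library order and was not tested. Without mixed and border barcodes the counts were 1, 7, 2 and 1, so most of the 30 App UMIs lay in the barcodes left out. Its level in pooled microglia was 128 CPM against 224 CPM in the other barcodes. Of 14 genes for APP, its relatives and its proteases 1 was tested, Aplp2, with a log2 fold change of 0.30. Adam10, an alpha-secretase, had 34 UMIs, Bace1 had 7 and the amyloid-degrading protease gene Mme had 0.

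Cell cycle genes summed to 586 CPM in pooled microglia, against 650 CPM in the other barcodes, with 137 UMIs from 8 of 13 listed genes. Most came from Tubb5 (75 UMIs), Pcna (21), Hmgb2 (17) and Stmn1 (13), which cells also express outside division. Mki67, Cdk1, Ccnb1, Ccnb2 and Birc5 had 0 UMIs and Top2a had 2, and only Tubb5 was tested (log2 fold change -0.46). Müller markers summed to 502, 406, 363 and 5880 CPM in library order (577, 460, 367 and 212 CPM without mixed and border barcodes), and Glul was the only one tested (log2 fold change 2.36, edgeR adjusted p = 0.617). A single NLGF male barcode held 105 of the 182 Glul UMIs, and Glul was called without the NLGF female (log2 fold change 3.20), whereas its estimate was -0.32 without the NLGF male. Endothelial markers had 10 UMIs in all, Flt1 with 8 of them, and Cldn5 with 0.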

How the data were processed

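Each library's deposited matrix holds unnormalised UMI counts for 32285 genes. It was written by Cell Ranger 6.1.1 per the file headers, whereas version 3.1.0, STAR and mm10 stand in the submitters' processing notes. The lowest barcode total was 500 UMIs. Positions are from GENCODE M21.

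Microglia were chosen by the rule given at the start; the rule, its members and all gene lists were chosen with earlier results of these data known. Counts were summed per library and tested with edgeR 4.0.16 (quasi-likelihood, TMM, filterByExpr, no term but genotype, Benjamini-Hochberg over all genes tested, threshold 0.05) in R 4.3.3. Each p-value rests on 2 animals per genotype, 1 library each. DESeq2 1.42.0, other thresholds, factors and filters, sex as a block, thinning and leaving out libraries were alternatives. Scrublet scores (scanpy 1.11.5) were computed per library; the automatic threshold marked 2 barcodes, too few for a working call, so doublets were not removed in the main values.

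Genes were named by rule: the 7 selecting genes, the 15 next by ratio to other barcodes, the 5 smallest p-values per direction, up to 5 members of each list with most UMIs, and App, Apoe, Trem2, Cst7, Itgax, Hspa5, Atf4 and Ddit3. Other members named in the text, chiefly those at or near 0 UMIs, were chosen after their values were seen. Intervals cover counting error only. Some genes that the rule names are not reported here.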

Additional observations from a re-analysis of the deposited data

Results flagged for a closer look

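In 7 named genes with at least 40 microglial UMIs the NLGF library lay on opposite sides of the WT library in females and males, by at least 0.5 on the log2 scale in each sex. The difference between the sexes was not tested, since each sex has 1 library per genotype. The male minus female difference of the log2 ratios of NLGF to WT CPM was 3.06 for Apoe (females -2.50, males 0.56). It was -2.00 for Ly86 (females 0.84, males -1.16), -2.07 for Selplg (0.66 and -1.41) and -2.18 for Bin2 (0.74 and -1.44). For Dock2 it was -2.84 (1.04 and -1.80), for Irf8 -2.29 (0.58 and -1.72) and for Entpd1 -1.52 (0.82 and -0.70). For Apoe, 1 border macrophage barcode held 457 of the WT female's 585 UMIs, and without mixed and border barcodes the difference was 1.39 (females -0.58, males 0.80). Without those barcodes Ly86, Selplg, Bin2, Dock2 and Irf8 still lay on opposite sides, with differences of -1.16, -1.02, -1.37, -1.93 and -3.46, whereas Entpd1 lay above WT in both sexes (0.70 and 0.25). The NLGF male then had 6 microglia and 14174 UMIs, so its values rest on few counts. Even with all barcodes, Irf8, Bin2 and Dock2 stood at 120, 120 and 90.0 CPM in the NLGF male, from a sum of 33334 UMIs. With all barcodes, in the 6 genes other than Apoe the NLGF male library was below the WT male, and this library had 10 microglia, 4 of them mixed, and the lowest share of selecting genes (1.11%).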

How the results depend on the processing

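The difference in microglia share stayed negative under all 9 alternatives, from -0.155 percentage points with at most 10% mitochondrial UMIs to -0.0710 with at least 12 UMIs of the selecting genes. Leaving out mixed and border barcodes, or the Müller-rich barcode alone, was chosen after seeing the data and gave -0.0995 and -0.109. No gene was called with upper-quartile factors, DESeq2, at least 4 UMIs of the selecting genes, thinning to the smallest library, or without border or top-scoring Scrublet barcodes. The replicate block by sex, which the labels give in place of replicate numbers, also called 0 genes, with 88 at an unadjusted p under 0.05. Without the filter on low counts 16 genes were called, 12 of which had most of their UMIs in 1 barcode. Leaving out 1 library called from 7 to 82 genes, where the lone library of a genotype is assumed to vary like the other genotype. The lowest count left out the WT female and the highest the NLGF female. A genotype then also had 1 sex only, so genotype and sex were partly confounded in these fits. The sex-linked gene Xist was called at a log2 fold change of 7.50 without the WT female and -7.66 without the NLGF female. H2-D1 was called in 4 of these 5 settings, H2-K1 and Ifitm3 in 3 and Fosb in 2, each with estimates below 0. Opn1sw, Pde6h, Pf4, Rlbp1 and Slc1a3 were also called in 4, each with 84.7% to 98.8% of its UMIs in 1 barcode. Clu, Kcnma1 and Mrc1 were called as often as H2-K1 and Ifitm3, each with 74.2% to 85.7% of its UMIs in 1 barcode. Fos, Gng13, Lyz2, Nfkbia and Xist were called as often as Fosb. The settings share libraries, so repeated calls are not independent. The cause was not tested. Of 695 log2 fold changes of 59 named genes under alternatives, 634 kept their direction without a call, 29 kept it with a call and 32 changed direction without one. Gene tests were not run with at least 12 UMIs of the selecting genes, at least 500 genes, at most 10% mitochondrial UMIs, or without mixed barcodes, since a library then had fewer than 10 microglia. Without mixed and border barcodes App moved from 128 to 63.6 CPM, Csf1r from 1536 to 1913, Cx3cr1 from 2195 to 2844, Ctss from 7245 to 9162, Ighm from 248 to 306, Laptm5 from 1318 to 1665, Trem2 from 1100 to 1370 and Atf4 from 158 to 133. Csf1r and Cx3cr1 are selecting genes, so part of their rise is set by the criterion for mixed barcodes.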
